A study of Caenorhabditis elegans with 6 samples.

Results

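The cytochrome P450 genes of Caenorhabditis elegans were followed on 6 Affymetrix arrays of whole L4 larvae. The members are the probe sets whose platform annotation gives exactly 1 gene with a symbol starting cyp-, which was the case for 78 of the 22548 probe sets that are not array controls. They represent 73 genes of 15 families and 25 subfamilies, where the number after the hyphen is the family and the letter the subfamily. Of these genes, 5 have 2 probe sets each. A further 2 probe sets that each match a pair of P450 genes were left out, so cyp-13A11, cyp-13A12, cyp-25A4 and cyp-25A5 have no value of their own. The gene daf-9 encodes a P450 as well, but its symbol keeps it outside the members, and its values are given with its pathway.

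P450 enzymes hold a haem group and use electrons passed on by a reductase to insert an oxygen atom into fatty acids, sterols or foreign compounds. In worms they act in detoxification, in the making of signalling lipids such as eicosanoids and of the sterol hormone dafachronic acid, and in forming the lipid layer of the eggshell. The worm families are placed in clans shared with vertebrates: cyp-14, cyp-33, cyp-34 and cyp-35 in the CYP2 clan, where most of the enzymes induced by foreign compounds lie, cyp-13, cyp-25 and cyp-43 in the CYP3 clan, cyp-29, cyp-31, cyp-32, cyp-37 and cyp-42 in the CYP4 clan of fatty acid hydroxylases, and cyp-44 among the mitochondrial enzymes.

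One group of 3 arrays held wild-type worms and the other 3 held zip-3(gk3164) mutants. zip-3 encodes a bZIP transcription factor thought to hold back the stress response that mitochondrial damage sets off, and how the gk3164 allele changes the gene is not given in the labels. Both genotypes were bleach-synchronized, grown in liquid culture on control RNAi bacteria and harvested as L4 larvae. The labels call the 3 samples of a genotype biological replicates and say no more about separate cultures. The brighter zip-3 probe set read 1203.9, 1112.7 and 939.6 in wild-type arrays 1, 2 and 3 and 384.6, 458.7 and 233.8 in mutant arrays 1, 2 and 3, so the groups did not overlap (log2 difference -1.64, limma adjusted p = 0.0717). The dimmer one differed by -0.51 (limma adjusted p = 0.393), and whether either lies in a part the allele changes is not given in the sources used here.

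Values are MAS5 signals on a linear scale, with the same trimmed mean on every array, and differences are log2 values, mutant minus wild-type, with a moderated standard error. Signals of different probe sets cannot be read as relative amounts of transcript, so each probe set is compared with itself between arrays. Wild-type arrays correlated at r = 0.954 to 0.972 across the probe sets tested, which are not independent replicates. Mutant array 3 correlated with the wild-type arrays at 0.943 to 0.958 and with mutant arrays 1 and 2 at 0.925 and 0.890, so results are given with and without it where it matters. Markers of several tissues also differed in level between the arrays, although none of the germline, sperm or epidermal ones passed at a limma adjusted p under 0.05. All 11 oocyte and germline markers tested had negative differences, with list medians of -1.08, -2.13 and -0.23 in mutant arrays 1, 2 and 3 relative to the wild-type mean. All 9 sperm markers were negative too, with medians of -1.68, -2.28 and -0.47, while 6 of 8 epidermal markers were positive, with medians of 1.77, 1.49 and 1.20. In these whole-worm samples, a different number of cells of a type and a different amount of RNA per cell cannot be told apart. What lies behind the marker differences, in either direction, was not tested.

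No P450 probe set passed the threshold between genotypes on all 6 arrays, and those whose groups separated were mostly higher in the mutant. Of the 78 members, 41 were bright enough to be tested, which is 52.6% of them against 60% of all probe sets, and they represent 38 genes. At a limma adjusted p under 0.05, 0 members were called higher and 0 lower, against a background of 0.118% higher and 0.0148% lower over the 13529 probe sets tested. At an unadjusted limma p under 0.05, 8 members were higher, or 19.5% against a background of 10.1%, and 1 was lower, or 2.44% against 9.27%. The 8 include both probe sets of cyp-42A1, so they represent 7 of the 38 genes. The 3 mutant arrays all lay above the 3 wild-type arrays for 9 members, or 22% against 14.1% of all probe sets tested, and all below for 1, or 2.44% against 8.80%. Of the 8 higher members 3, and of the 9 without overlap 4, had a wild-type geometric mean signal under the filter value of 68.7 and were tested because the mutant arrays are high. They were the probe sets of cyp-25A1, cyp-35D1, cyp-13B1 and 1 of cyp-42A1, and such probe sets had to differ to be tested, so these counts are given as a description. With 3 arrays against 3, groups that do not overlap are the most extreme order possible and have a two-sided exact permutation p of 0.1. The median difference was 0.26 over the 41 members and 0.04 over all probe sets tested, with 26 members positive, or 63.4% against 54.2%, and 15 negative. By array, the member median stood at 0.46, 0.18 and -0.07 in mutant arrays 1, 2 and 3 and at 0.08, 0.02 and -0.10 in wild-type arrays 1, 2 and 3. Mutant array 3 thus lay inside the wild-type range of this median and the other mutant arrays above it.

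Without mutant array 3, 6 members were called higher and 1 lower at a limma adjusted p under 0.05, which is 14.6% against a background of 5.96% and 2.44% against 10.1%. The 6 were cyp-25A1, cyp-25A2, cyp-31A1, cyp-32B1, cyp-34A9 and cyp-37B1, and the lower one was cyp-34A8. Mutant array 3 was picked out from these same values as the mutant array most like wild-type. Leaving it out raised the calls over all probe sets tested from 18 to 2167. The adjusted p-values without it, here and for single genes below, are therefore a description and lend no support to a difference. cyp-25A1 is also among the members tested because the mutant arrays are high. Without any other single array 0 members were called, and 4 to 6 were higher and 1 to 3 lower at an unadjusted p under 0.05. The member median was 0.37 without mutant array 3 and 0.06 without mutant array 1. When limma weighted the arrays by their fit, 43.9% of the tested members were called higher and 2.44% lower, against 18.2% and 16.8% of all probe sets tested, with weights from 0.27 for mutant array 3 to 5.89 for mutant array 1.

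**Figure D1:**
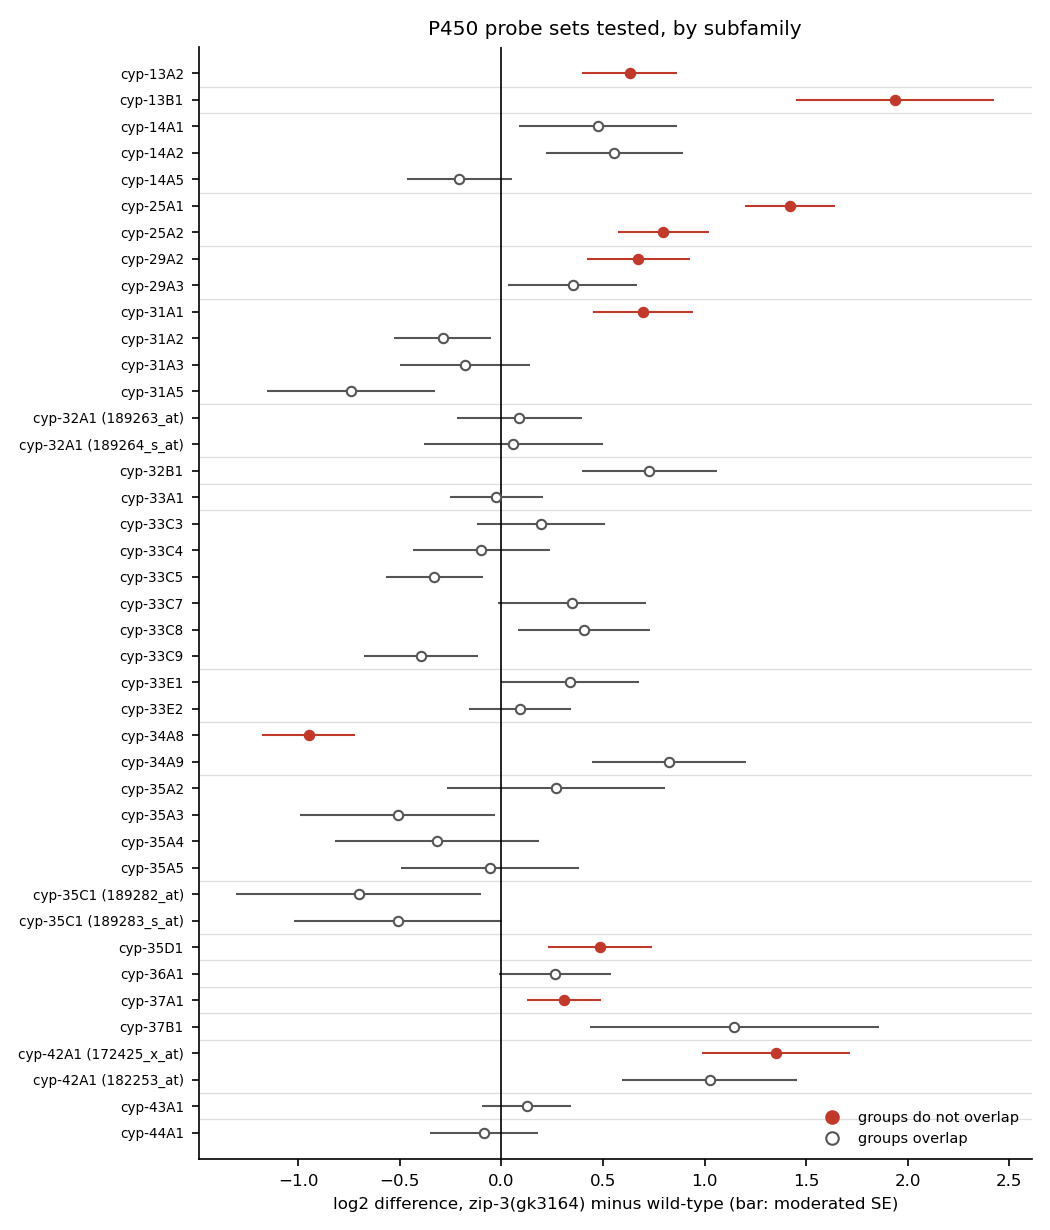
Log2 difference between genotypes (x axis, mutant minus wild-type, bar: moderated SE) of the 41 P450 probe sets tested, ordered by subfamily with grey lines between subfamilies. Filled red points mark probe sets whose 3 mutant arrays all lie on one side of the 3 wild-type arrays, 9 above and 1 below, and open points mark overlapping groups.

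In the CYP3 clan the tested probe sets all had higher mean log2 signals in the mutant. All 5 of its tested probe sets, out of 16, were positive, with a median of 0.80, and 4 had groups that did not overlap. In the CYP4 clan 10 of 13 were positive (median 0.35, 4 without overlap), and in the CYP2 clan 10 of 21 (median -0.03, 1 higher and 1 lower without overlap). Over all probe sets tested, 54.2% were positive, 14.1% had separated groups with the mutant higher and 8.80% with it lower. The CYP2 clan counts were under these shares, but with 21 probe sets tested that says little. With dim probe sets included, the medians were 0.97, 0.35 and 0.13 in the CYP3, CYP4 and CYP2 clans, against 0.09 over all probe sets. Among the separated probe sets tested, those of cyp-25A1, cyp-13B1, cyp-35D1 and the x-suffixed one of cyp-42A1 were under the filter signal in wild-type. They had to differ to be tested, so the counts and medians by clan are a description only. The grouping by clan was added after the values had been seen, and the clans were not tested against each other.

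cyp-25A1 had the smallest p of the members. It read 70.7, 68.8 and 63.7 in wild-type arrays 1, 2 and 3 and 171.8, 192.0 and 179.8 in mutant arrays 1, 2 and 3. The 3 mutant values lay close together and all well above the wild-type values, mutant array 3 included. The wild-type geometric mean of 67.7 lay just under the filter signal, so without detection calls the size of the difference is uncertain and no fold is given. The fitted log2 difference was 1.42 ± 0.22, with an adjusted p just over the threshold (limma adjusted p = 0.0691) and an unadjusted p of 0.000255. It passed in 3 of 15 alternatives, among them the fit without mutant array 3 (adjusted p = 0.0129) and the fit with no intensity trend (0.0426), and its difference stayed between 1.24 and 1.46 over all of them. Its tandem neighbour cyp-25A2 read 832.3, 782.0 and 606.4 in wild-type and 1557.1, 1295.9 and 1025.8 in the mutant. Here too every mutant array exceeded every wild-type array, with mutant array 3 the lowest of the mutant values. The difference of cyp-25A2 was 0.80 ± 0.22 (limma adjusted p = 0.167), and 0.95 without mutant array 3 (adjusted p = 0.025). The third member of the subfamily, cyp-25A6, was too dim to be tested, at 31.2, 24.6 and 40.9 against 44.1, 40.6 and 10.5, with overlapping groups.

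In family 13 the separated groups were in both subfamilies. The brighter cyp-13B1 probe set read 37.8, 119.7 and 43.2 in wild-type and 163.7, 326.6 and 205.3 in the mutant, a fitted difference of 1.94 ± 0.49 (limma adjusted p = 0.149) whose size is uncertain, because the wild-type geometric mean of 58.0 is under the filter signal. Wild-type array 2 stood well above the other wild-type arrays, yet below every mutant array. The second cyp-13B1 probe set, below the filter, had the same order, with 22.8, 50.8 and 32.5 against 83.6, 210.1 and 98.3. The IDs of both probe sets mark them as matching more than 1 transcript, and another gene can add to either signal. cyp-13A2 read 182.2, 166.1 and 179.4 against 270.9, 342.8 and 217.2, again without overlap (0.63 ± 0.23, limma adjusted p = 0.214). cyp-43A1, the remaining tested gene of the clan, read 809.6, 713.7 and 537.6 against 832.1, 748.6 and 645.4, with overlapping groups and a difference of 0.12 ± 0.22 that turned to -0.04 without wild-type array 3.

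**Figure D2:**
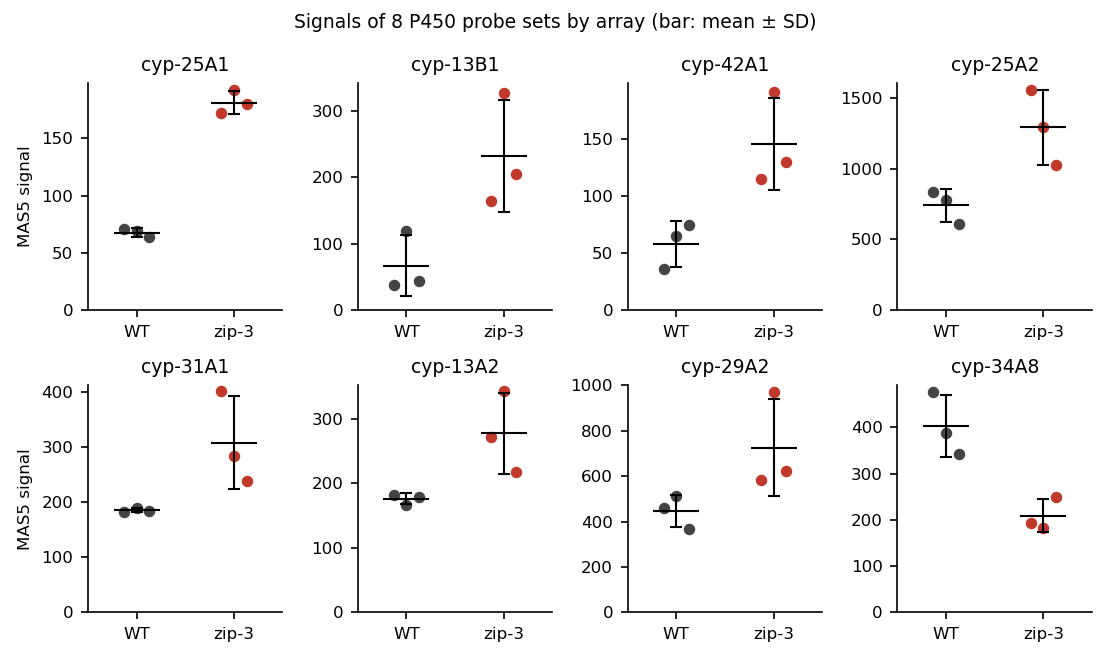
MAS5 signal by array (y axis, linear from 0) for the 8 P450 probe sets whose groups did not overlap and whose unadjusted limma p was under 0.05, with dark points for wild-type (WT), red points for zip-3(gk3164) and bars for mean ± SD (n = 3). cyp-13B1 and cyp-42A1 are each shown by their probe set with the x suffix, and cyp-34A8 was the one lower in the mutant.

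In the CYP4 clan the probe sets with separated groups were those of cyp-29A2, cyp-31A1, cyp-37A1 and 1 of the 2 of cyp-42A1, each with the mutant higher. The x-suffixed probe set of cyp-42A1 read 35.6, 64.8 and 74.2 in wild-type and 114.8, 191.0 and 130.0 in the mutant (1.35 ± 0.36, limma adjusted p = 0.159), and it too was under the filter signal in wild-type, with a geometric mean of 55.5. Its other probe set read 49.5, 131.6 and 107.3 against 219.0, 220.8 and 121.8, where mutant array 3 lay inside the wild-type range (1.02 ± 0.43, adjusted p = 0.25). Both probe sets of the gene thus had the same sign, and neither passed. cyp-29A2 read 458.5, 512.4 and 369.6 against 584.6, 970.8 and 621.6 (0.67 ± 0.26, adjusted p = 0.218), with mutant array 2 far above the others. cyp-29A3, which takes part in eicosanoid synthesis, had overlapping groups at 109.8, 75.5 and 54.6 against 102.0, 86.7 and 106.2 (0.35 ± 0.32). cyp-37A1 read 673.3, 565.1 and 639.4 against 814.0, 838.9 and 679.2, with groups only just apart (0.31 ± 0.18, limma adjusted p = 0.39).

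cyp-37B1 and cyp-32B1 are described after their values were seen, because both passed once mutant array 3 was left out. cyp-37B1 read 124.0, 66.7 and 115.8 in wild-type and 636.4, 218.3 and 74.8 in the mutant. The mutant arrays were thus spread over a wider range than the genotypes differed, and mutant array 3 lay within the wild-type values. The difference was 1.15 ± 0.71 on all arrays (limma adjusted p = 0.418) and 1.92 without mutant array 3 (0.0406). cyp-32B1 read 175.4, 145.0 and 132.3 against 346.7, 285.2 and 154.4, with mutant array 3 again among the wild-type values (0.73 ± 0.33, adjusted p = 0.284; without that array 1.07 and 0.0266). The 2 probe sets of cyp-32A1 differed by 0.09 ± 0.31 and 0.06 ± 0.44.

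The cyp-31A genes are of interest at a stage when the germline is about to make oocytes, because CYP-31A2 and CYP-31A3 act redundantly, with the reductase EMB-8, in making the lipids of the eggshell. cyp-31A2 read 496.1, 479.6 and 387.5 in wild-type and 381.6, 286.8 and 463.1 in the mutant (-0.29 ± 0.24, limma adjusted p = 0.551). cyp-31A3 read 206.5, 208.8 and 168.3 against 156.9, 120.8 and 264.1 (-0.18 ± 0.32, adjusted p = 0.807). In both, mutant arrays 1 and 2 were the lowest of the 6 and mutant array 3 lay among or above the wild-type values. cyp-31A5 had the same order with wider spacing, at 340.7, 196.0 and 245.9 against 167.9, 85.1 and 247.1 (-0.74 ± 0.41, adjusted p = 0.371). The medians of the oocyte and germline markers had the same order among the mutant arrays, and stood at 0.11, 0.37 and -0.48 in wild-type arrays 1, 2 and 3. All 11 of 11 such markers were matched, their summed signal ranged from 18919 to 28305 in wild-type and from 7976 to 21842 in the mutant, and none was at 0. Their part in the cyp-31A values was not tested.

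cyp-31A1 stood against the rest of its subfamily. It read 182.4, 189.0 and 184.0 in wild-type, a spread of a few signal units, and 400.8, 283.9 and 237.4 in the mutant, all higher (0.70 ± 0.25, limma adjusted p = 0.201; without mutant array 3 0.87 and 0.0463). The gene table of assembly WBcel235 lists cyp-31A1 as a pseudogene, as it does cyp-29A1 and cyp-34A3. Its probe set and that of cyp-31A2 carry suffixes for shared sequence, so the transcripts behind these signals are uncertain. The subfamily median by array was 0.11, 0.06 and -0.12 in wild-type and -0.27, -0.67 and 0.20 in the mutant.

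The cyp-35A and cyp-35C genes, which are expressed mainly in the intestine and induced by many foreign compounds, varied more between arrays of one genotype than between genotypes. cyp-35A2, which is also linked to fat storage, read 1366.8, 719.0 and 1355.5 in wild-type and 3074.7, 1102.9 and 687.7 in the mutant. Mutant array 1 was the highest of all 6 arrays and mutant array 3 the lowest, and the mean signals of 1147.1 ± 370.8 and 1621.8 ± 1275.3 (SD, n = 3 each) overlapped widely (0.27 ± 0.54, limma adjusted p = 0.83). cyp-35A3 read 541.3, 336.5 and 373.2 against 561.1, 295.5 and 141.6 (-0.51 ± 0.48), and cyp-35A5 63.8, 83.1 and 117.3 against 129.2, 94.7 and 45.3 (-0.06 ± 0.44). The brighter cyp-35C1 probe set read 1439.2, 536.3 and 1327.4 against 1268.2, 712.2 and 393.5 (-0.51 ± 0.51), with wild-type array 2 and mutant arrays 2 and 3 well below the others. The second cyp-35C1 probe set was low in the same arrays, at 545.2, 203.3 and 505.3 against 532.4, 211.1 and 115.5. All 6 tested probe sets of cyp-35A and cyp-35C were lowest in mutant array 3, where 14.5% of all probe sets tested were, and this pattern was noticed in these data. With array weights, which put most weight on mutant array 1, cyp-35A2 passed with a difference of 1.37 (limma adjusted p = 0.0298), and cyp-35A3, cyp-35A4, cyp-35A5 and the brighter cyp-35C1 probe set had positive differences of 0.30, 0.49, 0.59 and 0.30 that did not pass.

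The cyp-35A median stood at 0.66, -0.18 and -1.11 in mutant arrays 1, 2 and 3 and at 0.31, -0.16 and 0.09 in wild-type, and the difference of -0.19 between genotypes became 0.28 without mutant array 3 and -0.61 without mutant array 1. Intestinal markers stood at 0.38, 0.39 and -0.26 in the mutant arrays and 0.11, -0.03 and -0.03 in wild-type. Of 9 such markers 8 were matched, with summed signals of 60527 to 64131 in wild-type and 48304 to 78784 in the mutant and none at 0, and their part in the cyp-35 values was not tested. Most of each sum came from asp-1 and act-5, so the sums say little about the other intestinal markers. Over all members tested, 15 of 41 were lowest in mutant array 3 (36.6%), 0 were lowest in mutant array 1, against 12% of all probe sets tested, and 17 were highest in mutant array 1 (41.5% against 19.7%). cyp-35D1 was the one tested probe set of family 35 whose groups did not overlap, at 61.9, 60.4 and 81.9 against 103.3, 93.3 and 87.0 (0.48 ± 0.26, limma adjusted p = 0.345), and it is named after its values were seen.

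**Figure D3:**
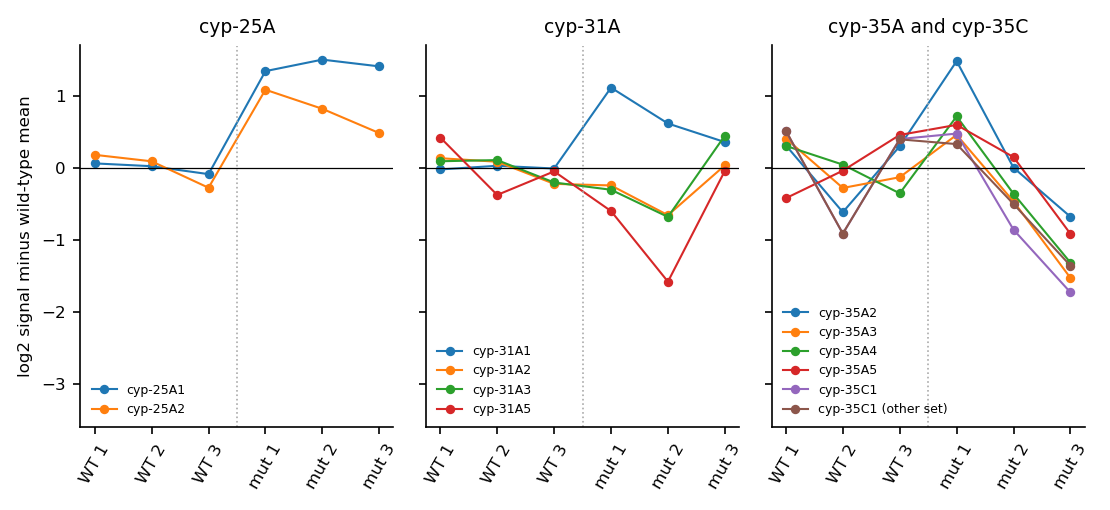
Log2 signal minus the wild-type mean (y axis) on the 6 arrays (x axis, WT 1 to 3 and mutant 1 to 3) for the tested probe sets of 3 groups, 1 line per probe set. cyp-25A lies above 0 in all 3 mutant arrays, cyp-31A2, cyp-31A3 and cyp-31A5 are lowest in mutant array 2, and all 6 cyp-35A and cyp-35C probe sets are lowest in mutant array 3.

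The 2 tested genes of the cyp-34A subfamily, which lie next to each other on the chromosome, had opposite signs. cyp-34A8 was the one member tested whose mutant arrays all lay below wild-type, at 476.0, 388.6 and 343.5 in wild-type and 193.3, 183.3 and 249.6 in the mutant. The difference was -0.95 ± 0.23, a 1.93-fold lower signal (limma adjusted p = 0.142, unadjusted 0.00367), and -1.08 without mutant array 3 (0.0203). It stayed negative in all 16 alternatives that tested it, between -1.08 and -0.82. cyp-34A9, a gene regulated by DAF-16 in long-lived insulin receptor mutants, read 74.7, 89.7 and 90.7 against 208.1, 193.4 and 84.1. Mutant arrays 1 and 2 were well above wild-type, while mutant array 3 lay among the wild-type values (0.83 ± 0.38, adjusted p = 0.285, and 1.24 with 0.0189 without mutant array 3). The opposite signs of these neighbours were not tested as a difference.

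Family 33, the largest, showed no separated groups among its 9 tested probe sets of 18. Of all probe sets tested, 14.1% had separated groups with the mutant higher and 8.80% with it lower, so the absence among 9 says little. Among the dim members of the family, cyp-33C1 and cyp-33C11 had separated groups with the mutant higher, as did 10.2% of all dim probe sets. Their signals were far under the filter value. cyp-33C1 read 3.4, 3.9 and 4.1 in wild-type and 5.2, 6.6 and 5.2 in the mutant, and cyp-33C11 9.6, 9.1 and 6.4 against 17.8, 12.2 and 27.3. Of the tested probe sets, 5 were positive and 4 negative, from -0.40 to 0.41, with a median of 0.09. The family median was 0.38, 0.04 and -0.37 in mutant arrays 1, 2 and 3, so the mutant arrays lay on both sides of the wild-type mean. cyp-33C8 had the most positive value of its subfamily, at 316.0, 368.0 and 302.0 in wild-type and 722.3, 319.6 and 354.8 in the mutant, where mutant array 1 alone stood out (0.41 ± 0.33), and cyp-33C9 the most negative (-0.40 ± 0.28). The median of the cyp-33C subfamily was 0.05, and -0.01 once arrays were centred on their medians. cyp-33A1 read 536.1, 445.4 and 615.8 against 621.1, 542.0 and 413.6 (-0.03 ± 0.23). cyp-33E2, which oxidizes eicosapentaenoic acid and is active in the pharynx, averaged 132.4 ± 22.5 against 141.2 ± 22.9 (SD over 3 mutant or wild-type arrays, wild-type first), and its groups overlapped (0.09 ± 0.25). In family 14, 3 of 5 probe sets were tested and none of these had separated groups, while the dim cyp-14A3 did, with the mutant higher. cyp-14A1 and cyp-14A2 differed by 0.48 ± 0.39 and 0.56 ± 0.34, each with mutant arrays 1 and 2 above all wild-type arrays and mutant array 3 not, and cyp-14A5 by -0.21 ± 0.26.

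cyp-36A1 and cyp-44A1, which were not counted with any of these clans here, had overlapping groups. cyp-36A1, which acts in behaviour downstream of the hypoxia regulators EGL-9 and HIF-1, read 97.9, 73.7 and 62.2 in wild-type and 93.4, 81.4 and 102.2 in the mutant (0.26 ± 0.28). cyp-44A1, the mitochondrial P450, read 548.8, 615.0 and 324.2 against 440.5, 462.5 and 450.1, so the mutant arrays lay within the wide wild-type range (-0.09 ± 0.27, limma adjusted p = 0.895). Leaving out wild-type array 1 or 2 turned the cyp-44A1 difference to 0.01 or 0.10. Both cyp-23A1 probe sets were below the filter.

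The 37 dim members, among them 8 of 9 cyp-13A, 7 of 9 cyp-34A and all cyp-35B and cyp-33D probe sets, had mean signals under the filter value of 68.7. The brightest of them was cyp-34A3 and the dimmest member tested was cyp-35D1, with geometric mean signals of 67.1 and 79.7. With no detection calls to say which of these signals are above background, no fold is given for them. Groups did not overlap in 9 with the mutant higher, or 24.3% against 10.2% of all dim probe sets, and in 1 with the mutant lower, or 2.7% against 3.29%. cyp-13A5 read 7.2, 2.7 and 3.5 in wild-type and 73.1, 38.9 and 35.5 in the mutant, cyp-13A10 33.1, 49.5 and 11.9 against 74.2, 106.9 and 90.6, and cyp-34A2, the lower one, 105.5, 96.3 and 70.1 against 8.6, 55.2 and 47.1. These were singled out after their values were seen. Over all 78 members the groups did not overlap in 18 with the mutant higher, against 12.5% of all probe sets, and in 2 with it lower, against 6.59%. In a fit with no filter 13 of the 78 were higher and 2 lower at an unadjusted p under 0.05, against 8.17% and 6.41% of all 22548 probe sets.

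Some members with a known inducer or regulator were among the dim ones. cyp-14A4, a reporter gene for the detoxification response to mitochondrial dysfunction, read 4.7, 4.3 and 15 in wild-type and 34.5, 27.9 and 6.2 in the mutant, with mutant array 3 inside the wild-type range. cyp-35B1, a DAF-16 target, read 1.8, 26.5 and 2.1 against 52.0, 6.3 and 1.0, and the rifampicin-inducible cyp-13A7 3.3, 7.8 and 4.3 against 7.4, 9.5 and 3.8, both with overlapping groups. The cyp-23A1 probe sets read 2.4, 19.2 and 28.0 against 66.7, 57.2 and 29.4, and 14.9, 26.5 and 33.2 against 63.7, 87.7 and 20.8. The first of these had separated groups and the second did not.

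Many P450 genes lie next to one another on the chromosome. All 73 member genes were found in the gene table of assembly WBcel235, and 41 of its 70 protein-coding members fell into 12 runs in which at most 1 other protein-coding gene separated neighbours. The largest run held 8 genes, cyp-13A1 to cyp-13A8, of which only cyp-13A2 was bright enough to be tested. In the run cyp-34A5 to cyp-34A10, the difference was negative for cyp-34A8 and positive for cyp-34A9, and the dim cyp-34A10 read 16.1, 32.1 and 22.8 against 49.5, 61.3 and 33.4, with the mutant higher on every array. The neighbours cyp-25A1 and cyp-25A2 had the same sign in all 3 mutant arrays. In the run of cyp-33C3 to cyp-33C7, with both signs present, the 4 tested genes lay between -0.33 and 0.35.

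**Figure D4:**
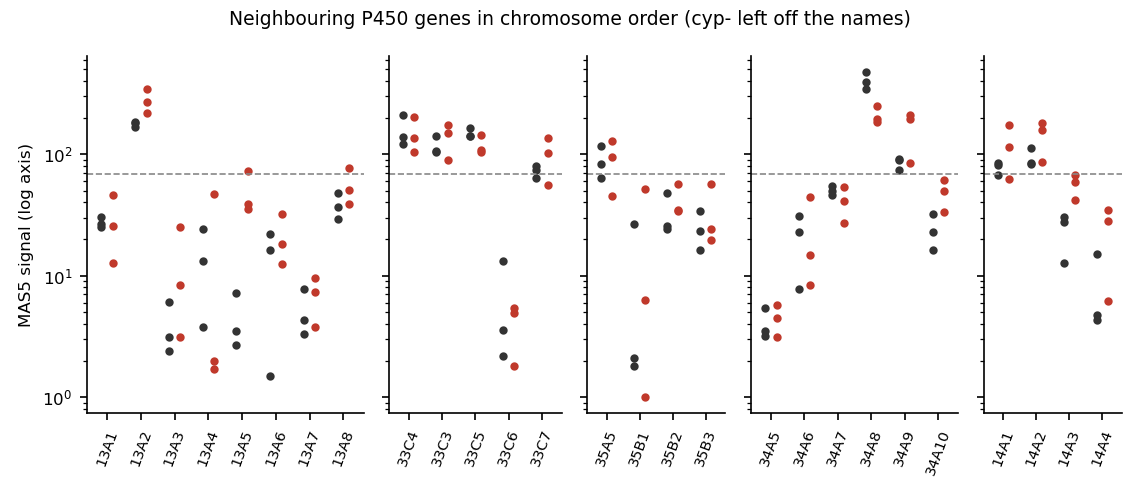
MAS5 signal on each array (y axis, log scale) of P450 genes in chromosome order (x axis) for the 5 runs of 4 or more neighbours, with dark points for the 3 wild-type and red points for the 3 mutant arrays. The dashed line marks the filter signal of 68.7, under which most genes of these runs lie, and cyp-34A8 and cyp-34A9 stand side by side with the mutant arrays lower in the first and 2 of 3 higher in the second.

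None of the electron partners of the P450 enzymes had separated groups. All 5 genes of this list were tested and had positive differences, from 0.09 to 0.46 with a median of 0.19. Of all probe sets tested, 54.2% were positive, 14.1% had separated groups with the mutant higher and 8.80% with it lower. The absence of separated groups among 5 genes therefore says little. Of the 5, 0 passed at a limma adjusted and 0 at an unadjusted p under 0.05. The list median in mutant array 3 was -0.11. emb-8, the P450 reductase, read 659.1, 738.3 and 593.9 in wild-type and 720.2, 821.4 and 638.1 in the mutant (0.13 ± 0.19, limma adjusted p = 0.756). The cytochrome b5 gene cytb-5.1 read 2272.9, 1928.6 and 1931.9 against 3545.2, 3300.1 and 1896.4, with mutant array 3 below all wild-type arrays (0.46 ± 0.26). Of 11 regulators of detoxification genes, 0 passed over all probe sets, 3 were higher and 0 lower at an unadjusted p under 0.05, and the median was 0.21. Over all probe sets tested, 10.1% were higher and 9.27% lower at that p, and 14.1% had separated groups with the mutant higher. The 3 with separated groups were aha-1, the partner of the aryl hydrocarbon receptor (0.85 ± 0.26), wdr-23, which restrains SKN-1 (0.47 ± 0.17), and the nuclear receptor gene nhr-49 (0.50 ± 0.21), with limma adjusted p-values of 0.18, 0.205 and 0.257.

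In the dafachronic acid pathway, which holds the P450 gene daf-9, 1 gene passed. Of 7 tested genes 5 were positive, with a median of 0.51, strm-1 rose at a limma adjusted p under 0.05 and 3 genes, strm-1 included, were higher at an unadjusted p under 0.05. The shares of all probe sets tested were 54.2% positive, 0.118% higher at an adjusted p and 10.1% higher at an unadjusted p under 0.05. Separated groups with the mutant higher made up 14.1% of all probe sets tested. daf-9, which makes the hormone, read 118.2, 84.5 and 100.2 in wild-type and 240.2, 295.9 and 151.2 in the mutant, all higher (1.14 ± 0.31, adjusted p = 0.159). daf-12, which encodes the hormone's nuclear receptor, read 549.7, 481.2 and 567.9 against 1188.0, 1153.5 and 776.9, also without overlap (0.94 ± 0.22, adjusted p = 0.138). strm-1, whose sterol methyltransferase acts on sterols of the pathway, read 33.2, 49.5 and 32.1 against 199.4, 186.7 and 170.6 and was the gene that rose (2.30 ± 0.28, adjusted p = 0.0408). Its wild-type signals are under the filter signal, so it was tested only because the mutant arrays are high and had to differ to be tested. The size of that difference is uncertain as well. The call held in 6 of 15 alternatives and was lost with the replicate block (adjusted p = 0.132), with no filter (0.0626), with quantile (0.0603) or median (0.0522) scaling and without any single array other than mutant array 3, over a range of adjusted p from 0.00145 to 0.28. daf-36, an earlier enzyme of the pathway, had overlapping groups (-0.01 ± 0.39). The epidermal markers, whose medians by array are given above, were likewise higher in the mutant for 6 of 8. All 8 of 8 were matched with summed signals of 35651 to 40187 in wild-type and 36580 to 39965 in the mutant, and none was at 0. Most of each sum came from sqt-3, which was lower in the mutant. It read 33939.6, 29571.9 and 32203.6 in wild-type arrays 1, 2 and 3 and 21807.6, 25976.4 and 26905.8 in mutant arrays 1, 2 and 3. The sums therefore do not show the rise of the 6 positive markers. The part of the epidermal markers in the daf-9 value was not tested.

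**Figure D5:**
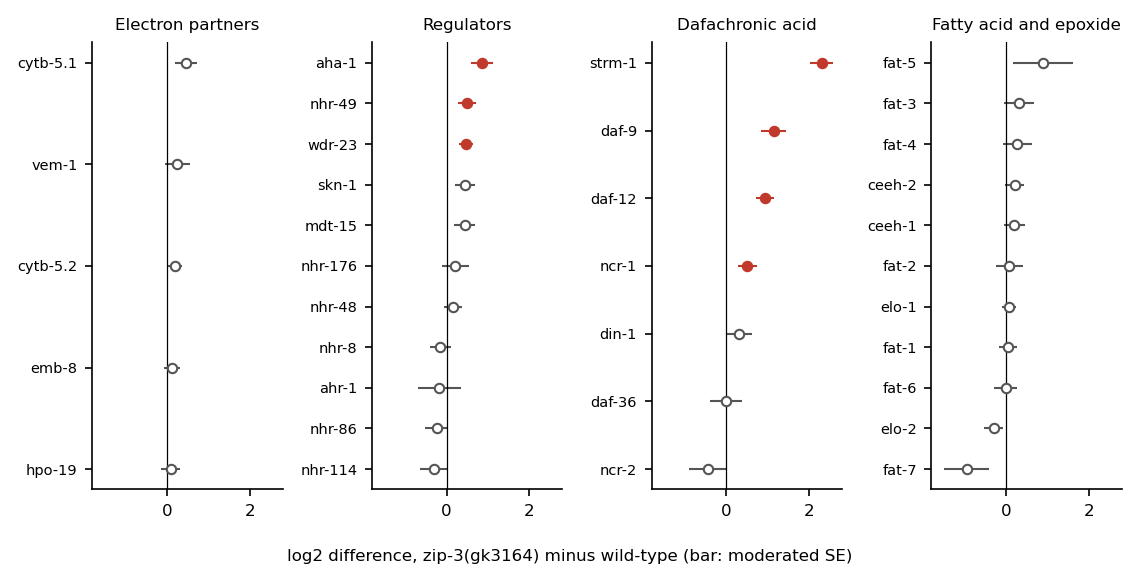
Log2 difference between genotypes (x axis, mutant minus wild-type, bar: moderated SE) of the tested genes of 4 lists that work with P450 enzymes, 1 panel per list. Filled red points mark groups that do not overlap, 0 among the electron partners, 3 among the regulators, 4 in the dafachronic acid pathway and 0 among the fatty acid enzymes and epoxide hydrolases. Of all probe sets tested, 14.1% had such groups with the mutant higher and 8.80% with it lower.

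Enzymes that supply the fatty acid substrates or open the epoxide products showed no separated groups. Of all probe sets tested, 14.1% had such groups with the mutant higher and 8.80% with it lower. The absence among 11 genes therefore says little. Of 11 such genes 0 passed at an adjusted p under 0.05 and 0 at an unadjusted p under 0.05, with a median of 0.08 and a range from -0.95 for fat-7 to 0.90 for fat-5, both fatty acid desaturase genes. Families that act beside or after P450 enzymes in detoxification are given by their counts at an unadjusted limma p under 0.05, a threshold that 10.1% of all probe sets tested passed as higher and 9.27% as lower. The UDP-glucuronosyltransferases had 1 higher and 11 lower of 44 tested (median -0.12), and ugt-13 was the one gene of these families that passed. It read 470.0, 381.5 and 298.4 in wild-type and 76.0, 89.7 and 105.3 in the mutant and fell by 2.07 ± 0.26 on the log2 scale (limma adjusted p = 0.047). That call held in 7 of 15 alternatives and was lost with the replicate block (adjusted p = 0.137), with no filter (0.0597), with robust empirical Bayes (0.052) and without any single array other than mutant array 3, while the difference stayed between -2.34 and -1.90. The glutathione S-transferases had 2 higher and 0 lower of 22 (median 0.25), and the short-chain dehydrogenases named dhs 6 and 1 of 23 (median 0.14). The P-glycoprotein transporters named pgp had 2 and 2 of 11 (median -0.18) and those named mrp 0 and 1 of 7 (median 0.30, which turned negative in several alternatives). The P450 members, with 8 higher and 1 lower of 41, and the glucuronosyltransferases had opposite balances, and that difference was not tested.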

How the data were processed

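Whole-worm RNA of 3 wild-type and 3 zip-3(gk3164) L4 samples was measured on 1-colour Affymetrix arrays. Per the submitters' processing notes, the authors made the deposited intensities with MAS5 and used Affymetrix Expression Console, whose versions the labels do not give. The values are linear and come without detection calls, and no offset was added. The 2% trimmed mean was 500.2 on each array. Of 22625 probe sets, 77 controls were left out, and 13529 with a mean log2 intensity at or above the 40th percentile (signal 68.7) were tested on the log2 scale with limma 3.58.1 in R 4.3.3 (lmFit, eBayes with an intensity trend, Benjamini-Hochberg adjustment over all probe sets tested, threshold 0.05). Only the genotype entered the fit. The number of arrays limits the precision, and the limma p-values set the genotype difference against the spread between samples of a genotype. What kinds of variation that spread holds is not known, because the labels say nothing of separate cultures. On simulated arrays the fit recovered 8%, 74%, 94% and 98% of 50 probe sets changed by 1, 2, 3 and 4 on the log2 scale. It also called 12 unchanged probe sets. A simulated probe set had the same spread on every array, unlike the real arrays, so these rates may not carry over to them.

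The members and lists were chosen with earlier results of these data known. Named members were those with groups that did not overlap and an unadjusted p under 0.05, the 8 brightest, the extremes of subfamilies with 4 or more tested genes, and some genes of known role. For the pathway lists they were emb-8, daf-9 and up to 3 genes a list without overlap. Every other gene was named after its values were seen. The 17 alternatives covered normalization, offset, filter, variance model, array weights, replicate block, shared sequence, averaging and leaving out each array. Gene symbols came from the platform annotation, and neighbours from a RefSeq gene table of WBcel235, whose coordinates were not used. Same-numbered arrays of the genotypes deviated with r of 0.016, 0.05 and -0.159, so the numbers were not taken as pairs.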

Additional observations from a re-analysis of the deposited data

How the results depend on the processing

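Members called at a limma adjusted p under 0.05 numbered 0 in each direction in most alternatives, but 1 higher with no intensity trend, and 18 higher and 1 lower with array weights, which called 4738 probe sets in all. Members higher at an unadjusted p under 0.05 numbered 5 with arrays centred on their medians, 13 with no filter, 3 with the filter at the 60th percentile and 18 with array weights. Members lower numbered 2 with no filter, with array weights and without probe sets of shared sequence. Leaving out 1 array gave 0 to 6 higher and 0 to 1 lower at an adjusted p, and 4 to 15 higher and 1 to 3 lower at an unadjusted p. The replicate block left 0 adjusted calls, 7 members higher and 1 lower at an unadjusted p, and a member median of 0.26.

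The filter at the 60th percentile, which left 15 members, moved the member median to -0.026, cyp-31A to 0.20, cyp-33C to 0.41, the regulators to 0.44 and the mrp family to -0.036. Array weights moved cyp-33C to 0.36, cyp-35A to 0.54, the regulators to 0.39 and mrp to -0.042. No filter gave 0.94 for the dafachronic acid pathway and 0.024 for mrp. Without shared sequence these were 1.14 and -0.33, and averaging probe sets gave -0.20 for mrp. Leaving out 1 array gave medians of 0.063 to 0.37 for the members, -0.47 to -0.02 for cyp-31A, -0.16 to 0.30 for cyp-33C, -0.61 to 0.28 for cyp-35A, 0.09 to 0.37 for electron partners, 0.15 to 0.34 for regulators, 0.32 to 0.63 for dafachronic acid, -0.02 to 0.34 for the fatty acid list, -0.29 to 0.06 for ugt, -0.031 to 0.36 for gst, 0.092 to 0.33 for dhs, -0.28 to 0.08 for pgp and -0.034 to 0.32 for mrp.

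Signs turned in single genes, none of which passed except cyp-35A2 with array weights (1.37, limma adjusted p = 0.0298). With array weights cyp-35C1 was 0.30, cyp-33A1 0.24, cyp-35A3 0.30 and cyp-35A5 0.59. When 1 array was left out, cyp-35A2 ranged from -0.34 to 0.74, cyp-43A1 from -0.043 to 0.25, cyp-33A1 from -0.16 to 0.14, cyp-44A1 from -0.36 to 0.096, cyp-31A3 from -0.49 to 0.073, cyp-33E2 from -0.008 to 0.23 and cyp-35A5 from -0.38 to 0.37. The cause of these shifts was not tested. Dim signals had no detection calls, so 37 members have values only.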
